A study of Homo sapiens with 7 samples.

Results

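Oxidative phosphorylation is carried out in the inner mitochondrial membrane by 5 protein complexes, and most of their subunits are encoded in the nucleus and transcribed by RNA polymerase II. Complexes I to IV pass electrons from NADH and succinate to oxygen and, except for complex II, pump protons. Complex V, the ATP synthase, uses the proton gradient to make ATP. The genes described here are the nuclear genes for these subunits, chosen by their symbols in the RefSeq gene table of GRCh38. There are 87 of them among 19974 protein-coding genes on chromosomes 1 to 22 and X. Complex I (NADH dehydrogenase) has 7 core and 30 accessory subunit genes in the set, complex II (succinate dehydrogenase) 4, complex III (cytochrome c reductase) 10, complex IV (cytochrome c oxidase) 17 and complex V 19. The choice by symbol also takes in the readthrough genes NDUFC2-KCTD14 and ATP5MF-PTCD1 and the copies UQCRHL and ATP5MGL, and it leaves out NDUFAB1 and the gene formerly named NDUFA4.

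The measurements were lists of peaks from chromatin immunoprecipitation sequencing (ChIP-seq) with antibody 6D7, which recognises the C-terminal domain (CTD) of RNA polymerase II when threonine 4 of its repeat carries phosphate (pThr4). The CTD is a long tail of repeated residues whose phosphorylation changes as the polymerase moves from the start to the end of a gene. Phosphorylation at serine 5 is best known from the starts of genes, and pThr4 from the region beyond the end of the coding part, where the transcript is cleaved and the polymerase terminates. The material was nuclear lysate of HEK293 cells, an established human embryonic kidney line. Matched aliquots were treated in vitro with active SCP1 (wild type, WT), a phosphatase that removes phosphate from serine 5, or with SCP1 made catalytically inactive by the D96A change (dead). Each arm had 3 biological replicates, and both arms share the cells, the lysate preparation and the antibody. The comparison addresses whether pThr4 is covered by phosphate on the neighbouring serine 5 and becomes visible to the antibody once that phosphate is removed. The treatment was applied to lysate, so it limits the model to what the antibody can reach in prepared chromatin.

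The lists differed greatly in length. The active SCP1 lists held 12625, 6680 and 36892 peaks for replicates 1, 2 and 3, and the inactive SCP1 lists held 2466, 1163 and 2699. The weakest peak listed in a library had a −log10 p between 3.1 and 3.8 in the active group and between 4.2 and 4.6 in the inactive group, so longer lists also admitted weaker peaks. Names of the peaks carry the tag 10 in replicates 1 and 2 and the tag 5 in replicate 3 of both groups, with no meaning given, so values from replicates 1 and 2 are set beside the group differences. As a check of the material, of 10 genes used by nearly every cell, 8, 9 and 9 had a peak after their end in the active libraries, against 9, 7 and 9 in the inactive libraries. Of 16 genes that mark other tissues, 3, 1 and 5 had one with active SCP1 and 1 in each inactive library. Of 4 markers of the kidney line, 2, 1 and 1 had one with active SCP1 and 1 in each inactive library, and these markers are too few to test the label. Mean shares with active and inactive SCP1 were 86.7% and 83.3% for the 10 genes and 18.75% and 6.25% for the 16. They were 33.3% and 25% for the 4 markers, where all protein-coding genes stood at 28.0% and 8.69%.

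Each gene was read in 3 windows: the promoter, 1 kb on either side of the transcription start site (TSS); the gene body, from 1 kb after the TSS to the transcription end site (TES); and the 5 kb after the TES. A gene counted as having a peak when a listed peak overlapped the window by at least 1 bp. Of the 87 genes, 75 had a peak in some window of some library, where 65.4% of the 19671 protein-coding genes with a known strand had one. The other 12 had none anywhere, against 34.6% of all genes. These 12 were ATP5PB, COX4I2, COX6A2, COX7B2, COX8C, NDUFA5, NDUFA8, NDUFA12, NDUFB3, NDUFB4, UQCR10 and UQCRHL. COX4I2, COX6A2, COX7B2 and COX8C among them encode isoforms of cytochrome c oxidase subunits that are restricted to tissues such as lung, heart, muscle or testis. ATP5PB, by contrast, encodes the stalk subunit b of every ATP synthase. The lists hold peaks above a cutoff and no read counts, so a gene without a peak was not detected at that cutoff and may still have signal.

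In each library more of the genes had a peak after their end than in the gene body or at the promoter. With active SCP1, 42, 35 and 59 of the 87 genes had a peak in the 5 kb after the TES, and with inactive SCP1, 20, 9 and 26 had one. The shares of all protein-coding genes were 25.9%, 18.8% and 39.3% with active SCP1, against 10.1%, 5.24% and 10.7% with inactive SCP1, below the share of the oxidative phosphorylation genes in every library. The means were 45.3 ± 12.3 genes in the active and 18.3 ± 8.62 genes in the inactive group (SD, n = 3 each). The lowest active library lay above the highest inactive one, with a difference of 27.0 genes and a two-sided exact permutation p of 0.1, the smallest that 3 libraries against 3 allow. The difference was 24.0 genes over replicates 1 and 2 alone and 20.2 genes without active replicate 3, the longest list.

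**Figure D1:**
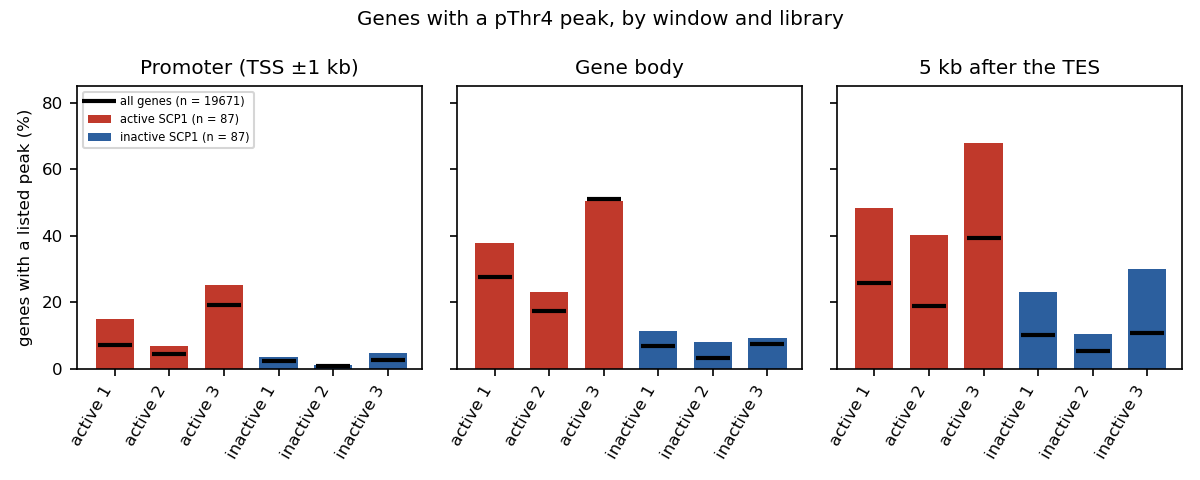
Share of genes with a listed pThr4 peak (%, vertical axis) in the promoter, the gene body and the 5 kb after the TES, for the 3 active SCP1 libraries (red bars) and the 3 inactive SCP1 libraries (blue bars). Bars show the 87 oxidative phosphorylation genes and black lines all protein-coding genes of the same library; after the TES every bar stands above its line, while in the gene body of active replicate 3 the bar (50.6%) is just under its line (50.9%).

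The counts were also read relative to all genes of the same library. The share of these genes with a peak after the TES was 1.87, 2.14 and 1.72 times the share of all genes in the active libraries. It was 2.27, 1.97 and 2.79 times that share in the inactive libraries. The groups overlapped, with means of 1.91 ± 0.211 and 2.35 ± 0.415 (SD, n = 3 each) and an exact permutation p of 0.2. With larger windows the difference, active minus inactive, was -0.508, the groups did not overlap, and the exact permutation p was 0.1. Without inactive replicate 2 it was -0.622, with an exact permutation p of 0.1. Members and genes with no protein-coding neighbour within 5 kb gave 0.742, with overlapping groups and an exact permutation p of 0.8.

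The group difference in counts after the TES depended on how the lists were cut. When each list was reduced to its 1163 strongest peaks, the length of the shortest list, 9, 8 and 13 genes kept a peak after the TES with active SCP1, against 10, 9 and 12 with inactive SCP1. The matching shares of all genes were 6.22%, 6.16% and 6.66% with active SCP1, against 5.77%, 5.24% and 5.78% with inactive SCP1. The mean difference was then -0.333 genes. Cutting every list to the same number removes any overall difference in peak number, so it cannot tell treatment and depth apart. The same holds for the gene bodies and promoters below. With a common cutoff instead, a −log10 p of at least 6, the counts were 14, 9 and 18 with active SCP1, against 7, 3 and 8 with inactive SCP1. All genes stood at 8.35%, 6.42% and 10.6% and at 4.38%, 2.76% and 4.30% under that cutoff. The lowest active count was then 1 gene above the highest inactive count. The difference was 7.67 genes, with an exact permutation p of 0.1. A −log10 q of at least 2 gave 23, 18 and 38 with active SCP1, against 10, 3 and 12 with inactive SCP1. All genes stood at 15.7%, 11.1% and 22.3% and at 5.71%, 3.07% and 5.82% under that cutoff. The difference there was 18 genes, with an exact permutation p of 0.1. Read depth is unknown here, so treatment and depth cannot be told apart as sources of the longer lists.

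**Figure D2:**
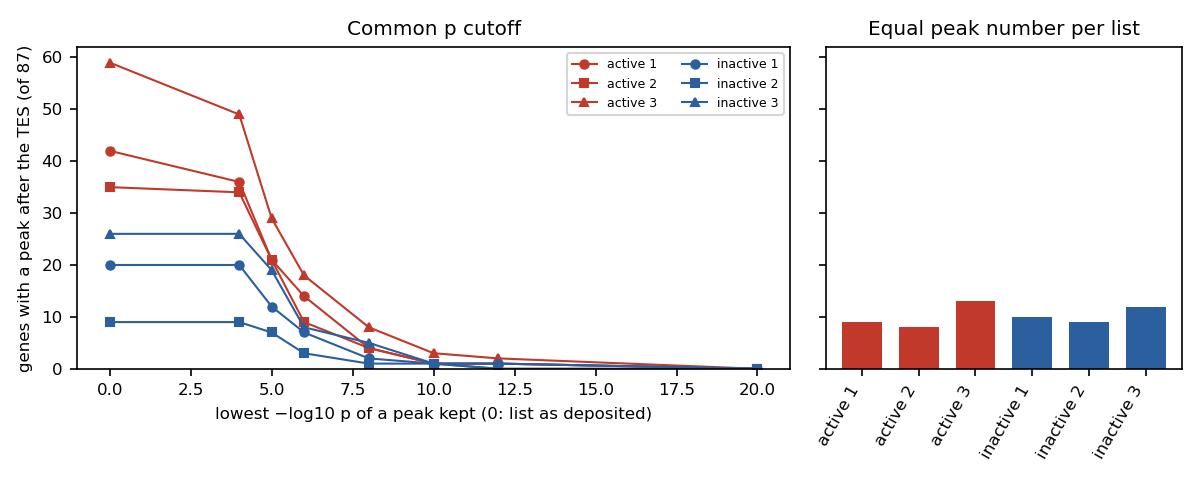
Number of the 87 oxidative phosphorylation genes with a peak in the 5 kb after the TES (vertical axis), by library. Left, peaks kept above a common −log10 p (horizontal axis), where the active counts start at 35 to 59 and the inactive counts at 9 to 26 and all curves are at 1 to 3 genes at a cutoff of 10; right, each list cut to 1163 peaks, where the bars span 8 to 13 and 9 to 12.

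Peaks after the TES sat close to the gene end. Their median beginning lay 609, 612 and 377 bp after the TES in the active libraries, against 408.5, 251 and 764 bp after it in the inactive libraries. Their median end lay 2067.5, 2001 and 2382 bp after the TES with active SCP1, against 1443.5, 1217 and 1727 bp with inactive SCP1, so the values of the active and the inactive libraries did not overlap. Coverage of the genes was highest 1200, 1200 and 1000 bp after the TES with active SCP1, where 29.9%, 24.1% and 47.1% of them lay under a peak. With inactive SCP1 it was highest 1000, 400 and 1400 bp after the TES, at 12.6%, 5.75% and 14.9%. All genes at those positions were covered in 12.4%, 8.56% and 20.2% of cases with active SCP1, against 4.18%, 1.88% and 3.73% with inactive SCP1. Per gene of the set, 864 ± 432 bp of the 5 kb were under a peak with active SCP1, against 190 ± 89.0 bp with inactive SCP1 (SD, n = 3 each). No such length or peak end is given here for all genes. Their coverage at the positions above was also higher with active SCP1, so neither difference is read as particular to this set. These lengths did not overlap either, with an exact permutation p of 0.1, and differed by 675 bp over all libraries and by 469 bp over replicates 1 and 2 alone. At 1163 peaks a list the difference was 115 bp, the groups overlapped, and the exact permutation p was 0.3, while a −log10 p of at least 6 gave 287 bp and a p of 0.1 by the same exact test.

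**Figure D3:**
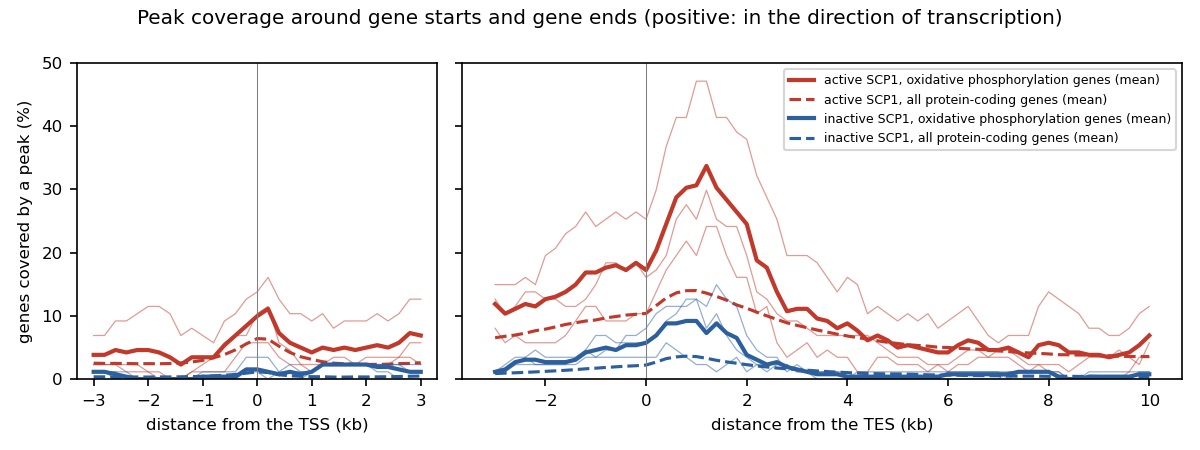
Share of genes covered by a peak (%, vertical axis) by distance in kb from the TSS (left) and the TES (right), positive distances being in the direction of transcription. Thick lines are the means of 3 libraries for the 87 oxidative phosphorylation genes, thin lines the single libraries and dashed lines the means for all protein-coding genes; the highest point of each active library stands 1000 or 1200 bp after the TES, and coverage at the TSS is lower.

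Peak strength within a list was read as a percentile of the −log10 p among all peaks of that list. The median peak after the TES of these genes stood at percentile 70.3, 65.4 and 84.9 in the active lists, against 52.2, 28.9 and 52.8 in the inactive lists. This percentile also moves with the length of the list, since a longer list adds weak peaks below it. The median fold enrichment of the same peaks, the ratio of the library over its background, was 3.64, 3.57 and 3.51 with active SCP1, against 3.72, 3.86 and 3.85 with inactive SCP1. The median over all peaks of a list was 3.39, 3.53 and 3.11 with active SCP1, against 3.85, 3.89 and 3.84 with inactive SCP1. Depth sets the scale of fold enrichment and is unknown here, so the values below are set side by side, and no difference between the groups is read from them.

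Of the 87 genes, 62 had a peak after the TES in at least 1 library, against 41.9% of all genes, and 31 had one in all 3 active libraries, against 16.6%. In 8 genes it was listed in all 6 libraries (all genes, 4.45%), and in another 8 in every active and no inactive library (all genes, 5.44%). A further 15 genes had such a peak in active replicate 3 only, against 13.4% of all genes. No gene had one in all inactive and no active libraries. The 31 genes had a median length of 7.97 kb and the 25 genes with no peak after the TES one of 13.3 kb, where the median over the whole set was 9.24 kb and over all genes 24.7 kb. Of the 12 members on chromosome 19, 9 were among the 31, and 28.0% of all genes on that chromosome had a peak after the TES in all 3 active libraries.

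**Figure D4:**
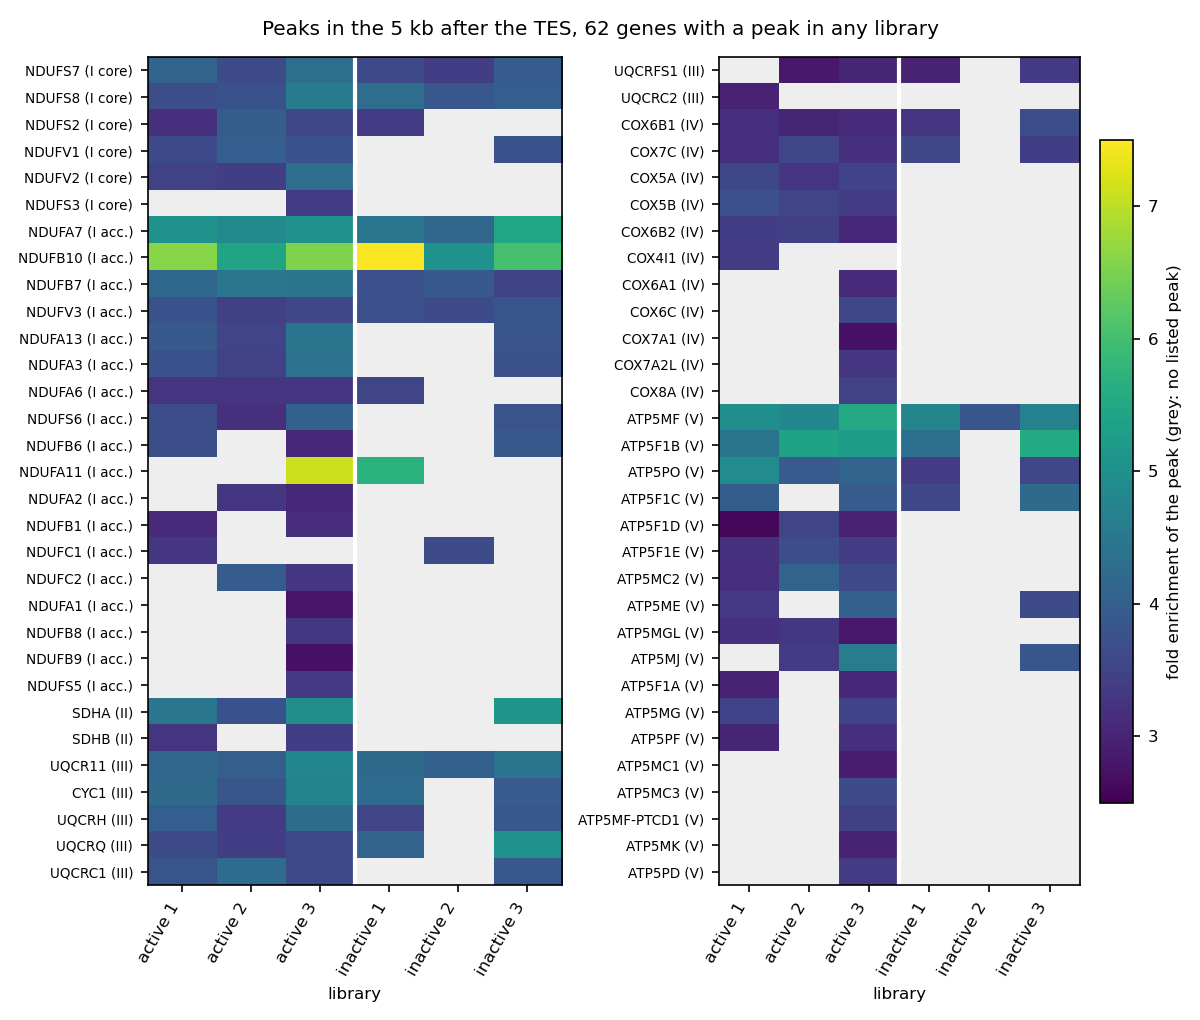
Fold enrichment (colour scale) of the strongest peak in the 5 kb after the TES for the 62 genes with such a peak in any of the 6 libraries, ordered by complex. Grey means no listed peak; NDUFB10 has the highest values of the genes with a peak in every library (5.04 to 7.48), and 15 genes are coloured in active replicate 3 only.

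Among the core subunits of complex I, which carry its flavin and iron-sulfur clusters or bind ubiquinone, 5, 5 and 6 of 7 genes had a peak after the TES with active SCP1, against 3, 2 and 3 with inactive SCP1. Mean shares were 76.2% with active and 38.1% with inactive SCP1, where all genes stood at 28.0% and 8.69%. NDUFS7 and NDUFS8, iron-sulfur subunits of the arm that hands electrons to ubiquinone, had one in every library. At NDUFS7 the fold enrichment was 4.09, 3.66 and 4.30 with active SCP1, against 3.61, 3.41 and 3.96 with inactive SCP1. The fold enrichment at NDUFS8 was 3.67, 3.76 and 4.53 with active SCP1, against 4.29, 3.86 and 3.99 with inactive SCP1. Its active peaks began 1395 to 1418 bp before the TES, within the gene, and TCIRG1 begins 2381 bp after its end on the same strand. NDUFV2, an iron-sulfur subunit of the arm that takes electrons from NADH, had peaks of 3.49, 3.44 and 4.30 in the active libraries and none in the inactive ones. The NDUFV2 peaks lay 1528 to 2644, 758 to 2001 and 476 to 2625 bp after its TES.

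Accessory subunits of complex I, which surround the core and stabilise it, had a peak after the TES in 11, 10 and 17 of 30 genes with active SCP1, against 6, 5 and 8 with inactive SCP1. Mean shares were 42.2% with active and 21.1% with inactive SCP1 (all genes, 28.0% and 8.69%). NDUFB10, NDUFA7, NDUFB7 and NDUFV3 had one in every library. NDUFB10 had fold enrichments of 6.61, 5.42 and 6.53 with active SCP1, against 7.48, 5.04 and 6.03 with inactive SCP1. The ribosomal protein gene RPS2 converges on NDUFB10 and ends 83 bp past its TES, and the peak cannot be assigned to either gene. NDUFA7 stood at 5.06, 4.88 and 5.04 with active SCP1, against 4.46, 4.15 and 5.45 with inactive SCP1, and CD320 follows it on the same strand after 237 bp. At NDUFB7 the values were 4.17, 4.47 and 4.45 with active SCP1, against 3.72, 3.90 and 3.53 with inactive SCP1. TECR converges on NDUFB7 with 98 bp between their ends. NDUFV3 stood at 3.77, 3.44 and 3.57 with active SCP1, against 3.72, 3.67 and 3.81 with inactive SCP1, and its peak in active replicate 3 was 9527 bp wide.

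Complex II is the smallest complex and the only one shared with the citric acid cycle. After the TES, 2, 1 and 2 of its 4 genes had a peak with active SCP1, against 0, 0 and 1 with inactive SCP1. Mean shares were 41.7% with active and 8.33% with inactive SCP1 (all genes, 28.0% and 8.69%). SDHA, the flavoprotein that oxidises succinate, had fold enrichments of 4.47, 3.77 and 4.97 with active SCP1 and a peak of 5.09 in inactive replicate 3 alone. SDHB, the iron-sulfur subunit, had peaks in active replicates 1 and 3 only, at 3.27 and 3.43. The membrane anchor genes SDHC and SDHD had no peak after the TES in any library.

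Complex III had a peak after the TES at 6 of 10 genes in each active library and at 5, 1 and 6 in the inactive libraries. Mean shares were 60% with active and 40% with inactive SCP1 (all genes, 28.0% and 8.69%). UQCR11, a small subunit, had one in every library, at 4.14, 4.01 and 4.79 with active SCP1, against 4.23, 4.05 and 4.43 with inactive SCP1. Its peak in active replicate 1 was 9903 bp wide and was the widest over any of the 87 genes. CYC1, which encodes cytochrome c1, and UQCRQ and UQCRH, small subunits, had a peak in all active libraries and in inactive replicates 1 and 3. UQCRQ stood at 3.66, 3.42 and 3.59 with active SCP1 and at 4.08 and 5.03 in those inactive replicates. UQCRFS1, the Rieske iron-sulfur protein, was listed in active replicates 2 and 3 and in inactive replicates 1 and 3.

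Complex IV had a peak after the TES at 6, 5 and 10 of 17 genes with active SCP1, against 2, 0 and 2 with inactive SCP1. Mean shares were 41.2% with active and 7.84% with inactive SCP1 (all genes, 28.0% and 8.69%). COX6B1 and COX7C were the 2 genes found in the inactive lists, and both were also listed in all active libraries. COX5A and COX5B, structural subunits of the oxidase present in all tissues, and COX6B2, a testis isoform, were listed in every active and no inactive library. COX5A had fold enrichments of 3.59, 3.24 and 3.51, and its peaks began 4507 to 4896 bp after the TES, at the far edge of the window. COX5B had fold enrichments of 3.72, 3.55 and 3.36, also from the outer part of the window in replicate 1, where the peak began 3844 bp after the TES. COX6B2 stood at 3.41, 3.44 and 3.06, and the chromatin gene KMT5C converges on it with 1583 bp between their ends. Of the 8 members restricted to certain tissues, COX6B2 and ATP5MGL were the 2 with a peak after the TES in every active library (all genes, 16.6%). These are too few to be read as a trait of such genes.

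Complex V had a peak after the TES at 12, 8 and 18 of 19 genes with active SCP1, against 4, 1 and 6 with inactive SCP1. Mean shares were 66.7% with active and 19.3% with inactive SCP1 (all genes, 28.0% and 8.69%). In all, 18 of its 19 genes had such a peak in some library, and ATP5PB was the exception. ATP5F1B, the catalytic beta subunit, had fold enrichments of 4.45, 5.37 and 5.24 with active SCP1 and 4.32 and 5.56 in inactive replicates 1 and 3. BAZ2A follows it on the same strand and overlaps its end. ATP5MF, the membrane subunit f, was the only gene of the complex listed in every library after its TES, at 4.99, 4.82 and 5.51 with active SCP1, against 4.77, 3.84 and 4.69 with inactive SCP1. The readthrough gene ATP5MF-PTCD1 runs through the same bases, and the strongest peak in its body had the values given for ATP5MF in every library. ATP5PO, which joins the catalytic head to the peripheral stalk, stood at 4.92, 3.94 and 4.11 with active SCP1 and at 3.36 and 3.56 in inactive replicates 1 and 3. ATP5F1D and ATP5F1E, subunits of the central stalk, ATP5MC2, which encodes subunit c of the rotor ring, and ATP5MGL were listed in every active and no inactive library. ATP5F1E values were 3.22, 3.68 and 3.40, ATP5MC2 values were 3.19, 4.10 and 3.61, and ATP5F1D values were 2.62, 3.55 and 2.96. TUBB1 overlaps the end of ATP5F1E on the opposite strand, and MIDN begins 3758 bp after ATP5F1D on the same strand. ATP5MGL lies inside CYB5R3 on the same strand, so its peaks cannot be told apart from those of its host, and one of them was among the weakest of the set, with a −log10 p of 3.44 in active replicate 3. NDUFB9 after its TES in active replicate 3 was weaker still, at 3.25.

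Genes around the members limit the reading of every window. Another protein-coding gene lay within 5 kb of the TES, or over it, for 44 of the 87 genes, and over it for 14. Peaks after the TES that touched no window of another gene numbered 15 of 42, 14 of 35 and 22 of 59 with active SCP1, against 7 of 20, 2 of 9 and 12 of 26 with inactive SCP1. No such count is given here for all genes, so it is not read as particular to this set. Among the 18 genes with no neighbour within 5 kb of either end, 6, 7 and 12 had a peak after the TES with active SCP1, against 2, 0 and 4 with inactive SCP1. Of 9058 such genes in the genome, 14.7%, 10.1% and 25.7% had one with active SCP1, against 4.90%, 2.67% and 5.28% with inactive SCP1. ATP5MC2, COX5A, COX5B, COX7C and NDUFV1 were the isolated genes with a peak in all 3 active libraries, and COX7C and UQCRFS1 were the isolated genes with one in 2 inactive libraries. Isolated genes with no peak after the TES in any library were COX4I2, COX7B2, NDUFA12, NDUFB4, NDUFS4 and UQCRHL.

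Gene bodies had peaks in 33, 20 and 44 of the 87 genes with active SCP1, against 10, 7 and 8 with inactive SCP1. All genes stood at 27.7%, 17.5% and 50.9% with active SCP1, against 6.92%, 3.24% and 7.48% with inactive SCP1. The means were 32.3 ± 12.01 and 8.33 ± 1.53 genes (SD, n = 3 each), the groups did not overlap, and the exact permutation p was 0.1. Over replicates 1 and 2 alone the difference was 18.0 genes, where all 6 libraries gave 24.0. At 1163 peaks a list the counts were 8, 5 and 9 with active SCP1, against 6, 7 and 6 with inactive SCP1, and they overlapped, with a difference of 1 gene and an exact permutation p of 0.6. All genes then stood at 5.18%, 4.69% and 5.75% with active SCP1, against 3.71%, 3.24% and 3.92% with inactive SCP1. A −log10 p of at least 6 gave a difference of 6.67 genes, with an exact permutation p of 0.2. A −log10 q of at least 2 gave 14.3 genes, with an exact permutation p of 0.1. Some gene body peak was listed for 49 genes (all genes, 53.4%), in all 3 active libraries for 16 (all genes, 15.0%), in every active and no inactive library for 6 (all genes, 6.85%), and in all 6 libraries for 4 (all genes, 2.53%). The share of these genes was 1.37, 1.32 and 0.994 times that of all genes in the active libraries, and 1.66, 2.48 and 1.23 times that share in the inactive ones. The gene body window grows with gene length, whose median is 9.24 kb in the set and 24.7 kb over all genes. These ratios therefore compare windows of unlike size. A gene body window exists for 84 of the 87 genes, since the other 3 are under 1 kb long. The 4 genes listed in every library were ATP5MF-PTCD1, CYC1, NDUFA11 and NDUFB10.

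NDUFA11, an accessory subunit of complex I, had peaks inside the gene in every library. The fold enrichments were 5.68, 5.23 and 7.12 with active SCP1, against 5.69, 5.16 and 5.90 with inactive SCP1. Its peaks lay in the last part of the gene, beginning 3860 to 6762 bp before the TES with active SCP1, against 3008 to 3632 bp before it with inactive SCP1, and those of active replicate 3 and inactive replicate 1 ran on past the TES. The 6 genes with a gene body peak in every active and no inactive library were COX7A2L, NDUFA3, NDUFC2-KCTD14, NDUFS1, UQCR11 and UQCRC2. NDUFS1, the largest iron-sulfur subunit of complex I, had values of 3.68, 3.48 and 3.82. UQCRC2, a core protein of complex III, had values of 3.23, 3.40 and 3.82, and UQCR11 of 4.14, 4.04 and 3.52. COX7A2L, which takes part in joining complexes into supercomplexes, had values of 3.60, 3.64 and 3.29, with peaks that began 4324, 4079 and 5869 bp before its TES. Peaks assigned to NDUFC2-KCTD14 lay over 51 kb before its TES, where NDUFC2 ends, and those of active replicates 2 and 3, at 3.95 and 3.29, also counted as peaks after the TES of NDUFC2. NDUFA3, a small accessory subunit of complex I, had gene body values of 3.30, 3.86 and 3.17, and its peak after the TES in active replicate 3 was 8212 bp wide.

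Promoters had the fewest peaks, in a window shorter than the one after the TES. A peak was listed within 1 kb of the TSS for 13, 6 and 22 of the 87 genes with active SCP1, against 3, 1 and 4 with inactive SCP1. All genes stood at 7.04%, 4.47% and 19.2% with active SCP1, against 2.30%, 0.905% and 2.56% with inactive SCP1. The means were 13.7 ± 8.02 and 2.67 ± 1.53 genes (SD, n = 3 each), with a difference of 11.0, no overlap and an exact permutation p of 0.1. The difference was 7.5 genes over replicates 1 and 2 and 6.83 genes without active replicate 3. The share relative to all genes was 1.66 ± 0.416 with active SCP1, against 1.52 ± 0.263 with inactive SCP1 (SD, n = 3 each), and the groups overlapped with an exact permutation p of 0.6. At 1163 peaks a list, 3, 0 and 4 genes had a promoter peak with active SCP1, against 3, 1 and 2 with inactive SCP1. All genes then stood at 2.20%, 1.86% and 2.65% with active SCP1, against 1.55%, 0.905% and 1.67% with inactive SCP1. A −log10 p of at least 6 gave a difference of 2 genes, with an exact permutation p of 0.4. A −log10 q of at least 2 gave 4.67 genes, with an exact permutation p of 0.2.

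Most promoter peaks also touched the region after another gene's end. This was so for 7 of the 13, 5 of the 6 and 12 of the 22 genes with active SCP1 and for every gene with inactive SCP1. The peaks that touched no window of another gene numbered 3, 1 and 4 with active SCP1, against 0 with inactive SCP1. Neither count is given here for all genes, so neither is read as particular to this set. A divergent protein-coding gene that did not overlap the TSS began within 1 kb before it for 22 of the 87 genes. Of these 22, 6 had a promoter peak in some library, as had 19 of the other 65. Those 65 include the 15 genes whose TSS lies within another protein-coding gene, on either strand. No promoter peak was listed in any library for 62 genes (all genes, 80.0%), and 12 genes had one in active replicate 3 only (all genes, 12.4%). The weakest of these, at UQCR11, had a −log10 p of 3.27. A promoter peak in at least 2 active libraries was listed for 10 genes (all genes, 6.81%) and in all 3 for 6 (all genes, 3.90%). It was listed for CYC1 in all 6 libraries (all genes, 0.829%) and for NDUFA6 and COX7A1 in every active and no inactive library (all genes, 1.28%). The CYC1 peak of inactive replicate 2 ran from 887 to 2045 bp after the TSS, so it met only the edge of the promoter window.

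The sequence just before the TSS is shown for 4 of these 10 genes, those whose upstream bases are in the RefSeq promoter table and lie in no other annotated gene, because binding motifs of factors that act on many respiratory genes can be looked up there. The bases are from that table, on GRCh38.p14, written 5′ to 3′ in the direction of transcription and ending at the base before the TSS, with motif matches in capitals. The motifs searched on both strands were CGCATGCG for NRF1 (nuclear respiratory factor), CCGGAAGT for the ETS family with GABPA, AAGATGGC for YY1 and GGGCGG for the Sp family, and a match is a description of letters only.
SDHD: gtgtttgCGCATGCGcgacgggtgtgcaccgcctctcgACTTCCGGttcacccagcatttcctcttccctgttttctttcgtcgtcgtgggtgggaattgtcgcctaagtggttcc
NDUFA6: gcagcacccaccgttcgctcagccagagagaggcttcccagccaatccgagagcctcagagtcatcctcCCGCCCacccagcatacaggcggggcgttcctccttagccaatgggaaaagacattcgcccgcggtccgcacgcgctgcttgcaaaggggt
UQCRFS1: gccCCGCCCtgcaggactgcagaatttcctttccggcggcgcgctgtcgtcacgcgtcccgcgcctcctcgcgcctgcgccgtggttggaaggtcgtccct
NDUFA13: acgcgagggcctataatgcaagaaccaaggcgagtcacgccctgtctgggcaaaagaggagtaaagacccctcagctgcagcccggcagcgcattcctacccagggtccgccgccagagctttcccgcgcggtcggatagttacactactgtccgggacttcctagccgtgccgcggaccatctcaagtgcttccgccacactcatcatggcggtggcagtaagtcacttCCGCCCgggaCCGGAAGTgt

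The SDHD bases are 116 on the plus strand (chr11:112086757-112086872), the gap between it and the divergent gene TIMM8B, and hold an NRF1 match whose first base is 109 bp before the TSS and an ETS match 78 bp before it. The NDUFA6 bases are 160 on the minus strand (chr22:42090773-42090932) with an Sp match 91 bp before the TSS. The UQCRFS1 bases are 101 on the minus strand (chr19:29213152-29213252) with an Sp match 98 bp before it. The NDUFA13 bases are 250 on the plus strand (chr19:19515975-19516224), with an ETS match 10 bp and an Sp match 20 bp before the TSS. Over windows from 250 bp before to 50 bp after the TSS, 69 of the 87 genes and 15813 genes in all were in the table. The NRF1 letters were in 9 of the 69 (13.0%) and in 2.90% of all, the ETS letters in 10 (14.5%) and 6.17%, the YY1 letters in 11 (15.9%) and 3.86%, and the Sp letters in 41 (59.4%) and 58.3%. Of the 8 genes in the table with a promoter peak in at least 2 active libraries, 1 held the NRF1 letters, 2 the ETS letters, 1 the YY1 letters and 6 the Sp letters.

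SDHD, a membrane anchor of complex II, had promoter peaks in active replicates 1 and 3, at fold enrichments of 3.97 and 3.69. The peak of replicate 1 ran from 658 to 376 bp before the TSS, within TIMM8B, and that of replicate 3 from 486 bp before to 101 bp after it, over the bases shown. NDUFA6, an accessory subunit of complex I, had promoter peaks of 3.22, 3.59 and 3.33 with active SCP1 and none with inactive SCP1. They began 432, 431 and 357 bp before the TSS and ended 465, 254 and 621 bp after it, so each covered the start and the bases shown. UQCRFS1 had narrow peaks just inside the gene in active replicates 1 and 3, at 3.05 and 3.19, which began 139 and 174 bp after the TSS. NDUFA13 had peaks of 2.86 and 2.93 in the same replicates, lying 1010 to 574 bp before the TSS and 2637 bp before to 78 bp after it. TSSK6 begins 677 bp before NDUFA13 on the opposite strand, and both peaks reach into it.

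ATP5F1E, a central stalk subunit of the ATP synthase, had promoter values of 5.96, 3.80 and 6.63 with active SCP1 and 3.88 in inactive replicate 3, and in active replicates 1 and 3 it had the highest value of the 87 promoters within the library. These peaks began 466, 315 and 484 bp before the TSS with active SCP1, and PRELID3B ends 810 bp before it on the same strand. CYC1 had 4.23, 3.83 and 4.76 with active SCP1, against 4.24, 3.77 and 3.93 with inactive SCP1. Its peaks were 1159 to 6261 bp wide beside a gene of 2450 bp, and those of the active libraries and of inactive replicates 1 and 3 ran on past the TES, towards SHARPIN. NDUFB2, an accessory subunit of complex I, had values of 3.78, 3.67 and 4.85 with active SCP1 and 3.81 and 4.35 in inactive replicates 1 and 3. The active NDUFB2 peaks began 1239 to 1323 bp before the TSS, in the direction of ADCK2, which ends 1598 bp before it. NDUFA2, another accessory subunit, had 4.05, 3.39 and 3.46 with active SCP1 and 4.21 and 3.62 in inactive replicates 1 and 3, and TMCO6 overlaps its start on the opposite strand. The protein-coding gene IK, on the same strand as TMCO6, and the microRNA gene MIR3655 also lie within 1 kb of these NDUFA2 peaks. The peaks cannot be assigned to any one of these genes. COX7A1, the heart and muscle isoform of a small oxidase subunit, had 2.64, 2.67 and 2.75 with active SCP1. CAPNS1 converges on COX7A1 with 569 bp between their ends, and the peak of active replicate 3 was 5454 bp wide, so it covered the whole gene of 1526 bp. ATP5MG, membrane subunit g of the ATP synthase, had 3.32 and 3.34 in active replicates 1 and 3.

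**Figure D5:**
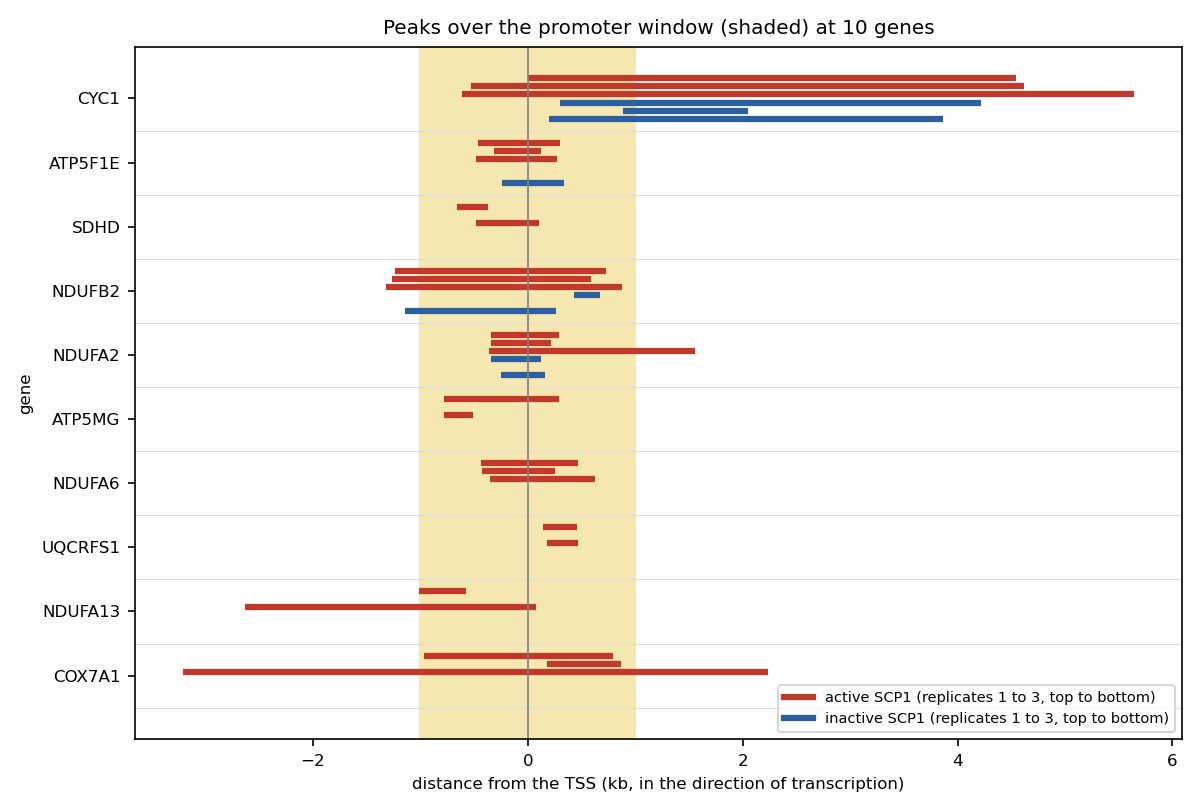
Extent of the listed peaks over the promoter window (shaded, 1 kb on either side of the TSS) for the 10 genes with such a peak in at least 2 active libraries, by distance in kb from the TSS. Each bar is 1 peak of 1 library, red for active and blue for inactive SCP1; the peaks of ATP5F1E, NDUFA6 and NDUFA2 in the active libraries span the TSS, while at UQCRFS1 they begin after it and at CYC1 they run through the gene.

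Other genes of the pathway were read from lists of assembly factors, carriers and regulators. Of 59 assembly factors, which build the complexes without being part of them, 19, 17 and 34 had a peak after the TES with active SCP1, against 10, 3 and 8 with inactive SCP1. Their mean shares were 39.5% and 11.9%. Over all genes, 25.9%, 18.8% and 39.3% had one with active SCP1, against 10.1%, 5.24% and 10.7% with inactive SCP1. The same all-gene shares apply to the lists below. Assembly factors of complex IV stood at 12, 9 and 16 of 24 with active SCP1, against 5, 1 and 3 with inactive SCP1, and those of complex I at 4, 5 and 9 of 17 and at 3, 2 and 3. None of the 4 assembly factors of complex II had a peak after the TES. Of 9 carriers and linked subunits, 4, 2 and 4 had one with active SCP1, against 1, 1 and 2 with inactive SCP1. CYCS, which encodes cytochrome c, SLC25A5, an ADP/ATP carrier, and NDUFAB1, the acyl carrier protein of complex I, were those with a peak in at least 2 active libraries. Of 13 regulators of mitochondrial genes, 6, 5 and 7 had one with active SCP1, against 3, 1 and 3 with inactive SCP1. The regulators listed in at least 2 active libraries were ESRRA, NRF1, POLRMT, PPRC1, SP1 and YY1. Promoter peaks of the 59 assembly factors numbered 9, 5 and 17 with active SCP1, against 3, 1 and 3 with inactive SCP1. All genes stood at 7.04%, 4.47% and 19.2% and at 2.30%, 0.905% and 2.56% for promoters.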

How the data were processed

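The deposited files were 1 broad-peak list of the MACS layout for each of 6 libraries on hg38, so the authors called peaks per sample. The IgG control was not analysed here. For each peak the authors deposited a fold enrichment (a ratio over background), a −log10 p-value and a −log10 q-value, and the lowest −log10 q in every list was just above 1 (at most 1.03). Submitters' processing notes name Bowtie2 2.5.2, cutadapt 4.6 and FastQC. The caller's version and filters are not given in the sources used here. The lists hold no read counts. Depth is therefore unknown, and precision rests on 3 libraries a group.

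Gene positions came from the RefSeq table of GRCh38.p14. Strand came from the RefSeq promoter table (69 members) or from GENCODE by name and chromosome (18 members), and was found for 19671 of 19974 protein-coding genes (98.5%). Where several peaks overlapped a window, the one with the highest −log10 p was reported. Groups were compared by a permutation test, exact and two-sided, of all 20 ways to assign 6 libraries, whose p cannot fall below 0.1, and so below the threshold of 0.05. Members, gene lists and tests were chosen with earlier results of these data known. Named after the TES were genes with a peak in all 6 libraries or in every active and no inactive library, for gene bodies the latter and the strongest, for promoters those in at least 2 active libraries, then the genes without a peak, the 3 widest and the 3 weakest peaks, and examples for each complex. Alternatives were equal peak number, a −log10 p of 6, a −log10 q of 2, smaller and larger windows, an overlap of 200 bp, the whole gene as body, isolated genes, replicates 1 and 2, each library left out and a replicate block. Scripts (Python 3.11.15, NumPy 2.4.6, pandas 2.3.3) were tested on simulated peaks with known positions.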

Additional observations from a re-analysis of the deposited data

How the results depend on the processing

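At 1163 peaks a list, the difference (active minus inactive) became -0.333 genes after the TES, -0.333 genes in any window and -0.526 in the promoter share relative to all genes. Genes listed in every active and no inactive library then numbered 0 for promoters, 0 for gene bodies and 0 after the TES, and 3 genes had a peak after the TES in all 6 libraries. With a −log10 p of at least 6 these counts were 0, 1, 2 and 3, and with a −log10 q of at least 2 they were 0, 2, 3 and 3. The TES share relative to all genes then differed by 0.0898 and 0.00143, where the deposited lists gave -0.436. Isolated genes alone gave 0.742 for that share and counts of 0, 0, 3 and 0. Larger windows (promoter 2 kb on either side, 10 kb after the TES) gave -0.114 for the promoter share, and smaller ones (500 bp, 2 kb) gave 5 genes after the TES in the active lists alone. Those numbered 14 over replicates 1 and 2. An overlap of 200 bp and the whole gene as body changed no direction. The count over all 6 libraries shrinks under stricter cutoffs, and every count shrinks with fewer genes, by construction. A count with active SCP1 alone need not shrink under a stricter cutoff, which also drops inactive peaks. After the TES, such genes were ATP5PO and NDUFB7 at a −log10 p of at least 6. UQCRC1 joined them at a −log10 q of at least 2. None of these was listed with active SCP1 alone in the deposited lists, where each also had a peak in some inactive library. Other causes were not tested.

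With each library left out in turn, the promoter share differed by -0.0925 (without active replicate 1) to 0.311, and genes listed with active SCP1 alone numbered 2 to 6 for promoters, 6 to 18 for gene bodies and 8 to 14 after the TES. The 6 and 18, and 13 after the TES, came without active replicate 2, the shortest active list, and the 14 without inactive replicate 3. Genes with a peak after the TES in all libraries left numbered 8 to 15, with 15 when inactive replicate 2 was left out. Counts of genes with a peak kept their direction, with differences of 6.83 to 14.8 genes for promoters, 18.2 to 30.2 for gene bodies and 20.2 to 32.2 after the TES; the lowest of each, and 432 of the 675 bp of TES length per gene, came without active replicate 3.

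A replicate block over the 3 equal numbers left the differences as they were (27.0 genes after the TES), with an exact sign-flip p of 0.25 for each of the 4 counts of genes, its smallest possible value, 0.75 for the promoter share and 0.5 for the TES share. Aliquots are described as matched, but no label ties them to a number. Deviations of same-numbered libraries from their group means correlated across all genes at 0.019, -0.019 and -0.024. These values rest on listed or unlisted peaks in 3 libraries a group, so they cannot decide whether the libraries were paired. The main test was run without blocks.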
